A study of Mus musculus with 24 samples.

Results

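Importins, exportins and nucleoporins were measured in mouse liver after dosing with furan, a small volatile ring compound that also arises during the heating of foods. The genes were taken by symbol: importin alpha adaptors (Kpna followed by a digit), Kpnb1, Tnpo1 to Tnpo3, all Ipo genes with a number, the exportins Xpo with a digit or t, Cse1l, and all Nup genes with a number. This gave 43 of the 24015 genes of the count table, 24 transport receptors and 19 pore proteins. Receptors and pore proteins carried under other symbols, such as Tpr or Sec13, fell outside the rule and are described as a separate list.

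The livers came from B6C3F1 females, hybrid mice that are common in toxicity testing, given as 5 to 6 weeks old. Furan mice received 8 mg/kg body weight per day by gavage for 21 days in corn oil, and control mice received corn oil by the same route. Tissue was collected 4 hours after the final dose. Each liver was cut into a snap-frozen piece, a piece fixed in formalin for 18 hours and a piece fixed for 3 weeks, the fixed pieces being embedded in paraffin (FFPE). The 4 control animals carry the numbers 2, 3, 4 and 6 and the 4 furan animals 41 to 44, so that 6 groups of 4 libraries, 24 in all, were available.

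Ribosomal RNA had been removed from total RNA before the libraries were made, and the labels give high RNA integrity numbers for frozen and low ones for fixed pieces. Total counts ranged from 38 to 49.3 M in frozen, from 22.9 to 28.1 M in FFPE 18 h and from 5.56 to 11 M in FFPE 3 weeks libraries. Counts on the 43 genes ranged from 58970 to 104627, from 47792 to 66619 and from 13684 to 28668. The 6 hepatocyte markers, among them Alb and Apoa1, summed to 69500 to 207000 CPM (counts-per-million units) per library, and none of them was at 0 in any group. Frozen control animal 3 stood apart from the other frozen controls, with 15249 genes detected against 16317 to 16662 in animals 2, 4 and 6. The furan calls in frozen liver, and the counts of members called between fixed and frozen pieces, are therefore also given without this animal.

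As background, most large proteins cross the nuclear envelope through pores, carried by receptors of the karyopherin family. Importins bind cargo in the cytoplasm and release it in the nucleus when Ran-GTP binds them, whereas exportins bind cargo together with Ran-GTP and release it in the cytoplasm. The classical import route uses an importin alpha adaptor, which reads the nuclear localisation signal, and importin beta (Kpnb1), which carries the pair through the pore. The pore is built from an inner ring, outer rings, a central channel of phenylalanine-glycine repeats, cytoplasmic filaments and a nuclear basket. In liver as elsewhere this machinery serves every dividing and resting cell, and its receptors are used for ribosome assembly, tRNA export and the entry of transcription factors.

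Promoters of members whose levels are described most closely below are shown first. Xpo1 and Kpnb1 were called higher with furan in each kind of piece. Kpna4 was called higher and Nup210 lower in FFPE 18 h liver only. Each sequence is the 250 bases before the transcription start from RefSeq, build GRCm38.p6, 5′ to 3′ on the strand of the gene; the count table itself was made on another build, mm9. Capitals mark GC boxes (GGGCGG) and CCAAT boxes (CCAAT), each searched on both strands. The Xpo1 promoter lies at chr11:23255791-23256040 on the plus strand, Kpnb1 at chr11:97187893-97188142 on the minus strand, Kpna4 at chr3:69127093-69127342 on the minus strand and Nup210 at chr6:91116827-91117076 on the minus strand.
Xpo1: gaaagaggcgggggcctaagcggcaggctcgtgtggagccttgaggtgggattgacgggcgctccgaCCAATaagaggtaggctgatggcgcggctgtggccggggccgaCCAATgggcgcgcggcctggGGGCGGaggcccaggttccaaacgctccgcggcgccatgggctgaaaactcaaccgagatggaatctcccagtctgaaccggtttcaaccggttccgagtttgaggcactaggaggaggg
Kpnb1: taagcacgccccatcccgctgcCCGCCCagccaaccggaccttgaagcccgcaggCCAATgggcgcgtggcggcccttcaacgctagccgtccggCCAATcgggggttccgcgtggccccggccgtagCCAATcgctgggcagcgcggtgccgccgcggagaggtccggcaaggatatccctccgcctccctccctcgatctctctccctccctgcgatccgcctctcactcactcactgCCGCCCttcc
Kpna4: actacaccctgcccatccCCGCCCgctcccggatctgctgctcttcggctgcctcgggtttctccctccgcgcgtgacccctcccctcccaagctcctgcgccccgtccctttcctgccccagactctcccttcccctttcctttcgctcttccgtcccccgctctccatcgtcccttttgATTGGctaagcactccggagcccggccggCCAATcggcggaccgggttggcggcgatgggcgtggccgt
Nup210: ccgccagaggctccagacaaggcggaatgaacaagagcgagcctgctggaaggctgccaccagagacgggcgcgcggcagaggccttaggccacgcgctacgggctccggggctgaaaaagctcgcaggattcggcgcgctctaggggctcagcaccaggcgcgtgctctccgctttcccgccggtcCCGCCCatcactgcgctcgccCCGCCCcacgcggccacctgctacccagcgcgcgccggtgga

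The Xpo1 stretch held 2 CCAAT boxes and 1 GC box, Kpnb1 held 3 and 2, Kpna4 held 2 and 1, and Nup210 held 0 CCAAT boxes and 2 GC boxes. Promoters were in the RefSeq table for 34 of the 43 genes, as 41 sequences. Of these, 61% held a GC box against 32.7% of all 32851 promoters of the table, and 48.8% held a CCAAT box against 33.8%. An E-box (CACGTG) was in 14.6% against 6.02%, and a cAMP response element (TGACGTCA) in 4.88% against 1.55%. A CCAAT box read on the opposite strand can share letters with a GC box that follows it. The median GC content was 64.4% in the members' promoters and 52.4% in all, which bears on motifs rich in G and C. A CCAAT box was found in 7 of the 12 members with a promoter that were called higher in FFPE 18 h liver, and in 11 of the 22 others. A match says only that these letters are in the window.

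In frozen control liver the level differed widely between the members. Per kilobase of exon, the importins Ipo7 and Ipo8, which carry ribosomal proteins and other cargo, had the highest receptor levels, at 31 ± 5.84 and 27 ± 2.46 CPM per kb (SD, n = 4), and their ranges overlapped. Kpnb1 followed with 23.5 ± 2.73 CPM per kb and Tnpo3, the importer of SR splicing proteins, with 17.8 ± 1.99 CPM per kb. Xpo1, the general exporter of proteins with leucine-rich export signals, stood in mid-order at 11.5 ± 1.85 CPM per kb. The lowest were Ipo13 with 2.57 ± 0.813, Xpo4 with 1.95 ± 0.152 and Kpna2 with 0.536 ± 0.279 CPM per kb. The ranges over animals of neighbours in this order overlapped for most receptors. They did not overlap between Kpnb1 and Tnpo3, between Xpo7 and either neighbour (Ipo4 and Ipo13), or between Xpo4 and Kpna2.

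Among pore proteins, Nup88 of the cytoplasmic side was highest at 16.6 ± 1.4 CPM per kb, followed by the basket proteins Nup153 at 10.7 ± 1.83 and Nup50 at 10.4 ± 1.51 CPM per kb. Nup93, a core protein of the inner ring, had only 1.96 ± 0.0679 and Nup35, also of the inner ring, 0.768 ± 0.23 CPM per kb. Proteins of the same ring thus differed in RNA level: inner-ring Nup155 stood at 6.84 ± 0.79 CPM per kb. Exon lengths came from GENCODE models of GRCm38, in which the merged exons of Xpo7 span 15.68 kb, so that its 4.83 CPM per kb rests on an unusually long model.

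**Figure D1:**
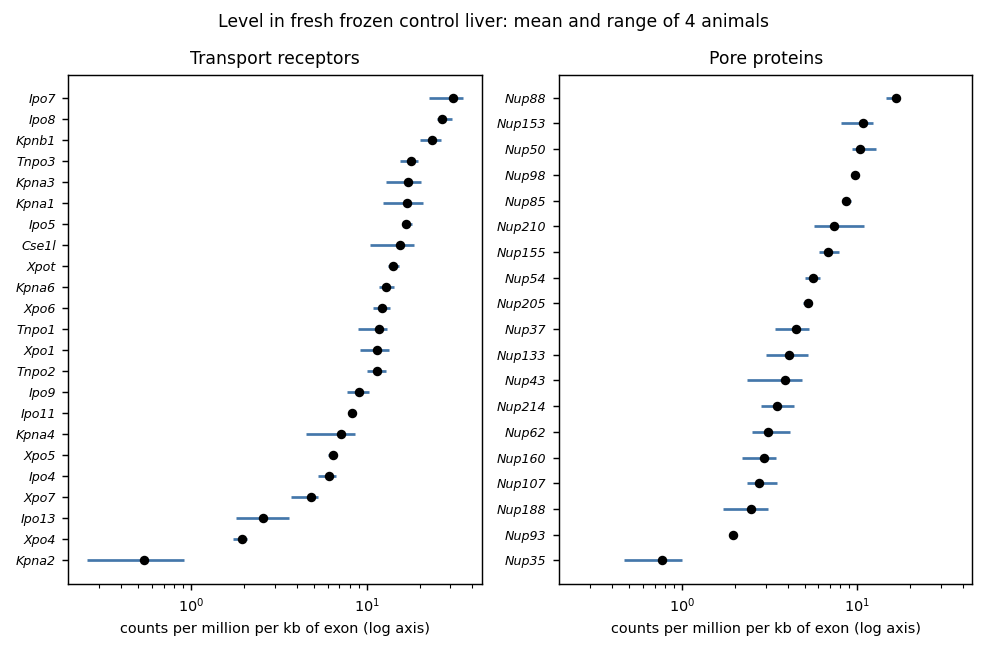
Level of each transport receptor (left) and pore protein (right) in fresh frozen control liver, in CPM per kilobase of exon on a log axis. Points are means and lines the range of 4 animals; Ipo7 is highest among receptors at 31 and Nup88 among pore proteins at 16.6, and Kpna7, with no count, is not drawn.

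Kpna7 was the 1 member that never passed the filter on low counts: it had 3 counts in 1 FFPE 18 h furan library (animal 44) and none in the other 23 libraries. Kpna2, an importin alpha known to be high in dividing cells, was detected at 0.602 to 2.15 CPM in frozen libraries, and failed the filter in FFPE 3 weeks liver, where it ranged from 0 to 1.59 CPM. A Kpna2 pseudogene is annotated, so reads could be shared with it. The exons of Nup62 overlap those of Il4i1 on the same strand over 88 bases. Tnpo3, Tnpo2 and Nup88 overlap genes on the opposite strand, and whether counting used the strand is not given in the sources used here.

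The first question was what furan did to these genes in fresh frozen liver. Xpo1 and Kpnb1 rose, and 37 of the 42 genes tested had a fold change above zero. Xpo1 was higher by 0.70 ± 0.13 on the log2 scale (estimate ± SE) and Kpnb1 by 0.53 ± 0.12, with adjusted p = 0.0152 and 0.0482 (edgeR quasi-likelihood test, Benjamini-Hochberg over all genes tested, n = 4 against 4). The 2 called genes were both receptors, 2 of 23 tested. No pore protein passed the test, and no member was called lower. Of all 14122 genes tested, 1.57% were called higher and 1.2% lower.

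The median log2 fold change was 0.229 over the receptors, with 21 of 23 above zero, and 0.216 over the pore proteins, with 16 of 19 above zero. Over all genes tested the median was -0.015. In 13 members, 9 receptors and 4 pore proteins, every furan library lay above every control library, a pattern found in 7.19% of all genes. Relative to the mean of the 4 frozen controls, the median receptor lay at 0.187 to 0.272 in the furan libraries and at 0.168, -0.206, -0.022 and 0.104 in control animals 2, 3, 4 and 6. The pore medians were 0.174 to 0.316 with furan and -0.034 to 0.078 in controls. Without control animal 3, 7 members were called higher, adding Kpna1, Kpna4, Nup153, Nup54 and Nup62, and 8.03% of all genes were called. The receptor median was then 0.184, Xpo1 read 0.604 ± 0.091 and Kpnb1 0.461 ± 0.105. Ipo7 read 0.267, Tnpo3 0.184, Xpot 0.228, Nup93 0.327 and Nup155 0.221, none of them called. Of the members given by library below, only Nup62 (0.531) and Nup88 (0.21) then lay further from zero than with all animals. Without control animal 4, furan animal 43 or furan animal 44, no member was called, and without control animal 6, furan animal 41 or furan animal 42 Xpo1 was the 1 member called. The share of all genes called was lower in these settings too, from 0.693% to 1.27% against 2.78% with all animals.

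**Figure D2:**
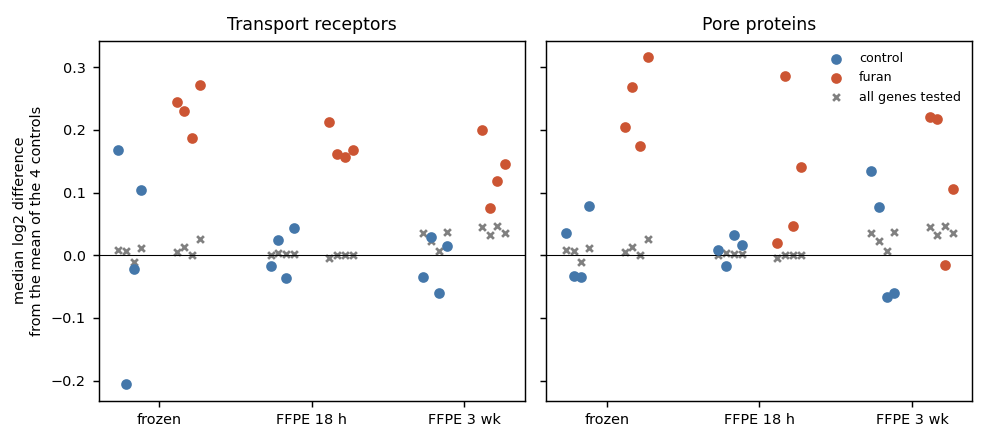
Median log2 difference of the transport receptors (left) and pore proteins (right) in each library from the mean of the 4 control libraries of the same preservation. Circles are libraries, blue for control and orange for furan, and grey crosses are the median of all genes tested; the frozen furan receptor medians (0.187 to 0.272) lie above all controls, frozen control animal 3 is lowest at -0.206, and the pore medians of furan and control overlap in the FFPE pieces.

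In FFPE 18 h liver more members passed the test: 13 rose and 1 fell. The 13 were the receptors Xpo1, Kpnb1, Kpna1, Kpna4, Tnpo3, Ipo7 and Xpot and the pore proteins Nup153, Nup98, Nup62, Nup93, Nup50 and Nup205, and the 1 that fell was Nup210. Of all 14204 genes tested, 7.82% were called higher and 7.72% lower. The receptor median was 0.203, with 22 of 23 above zero, the pore median 0.141, with 14 of 19 above zero, and the median of all genes -0.003. The pore median was 0.049 without furan animal 42 and 0.09 without control animal 2. Every furan library lay above every control in 13 members, against 9.59% of all genes. The median standard error over the members was 0.083 here and 0.129 in frozen liver, although the frozen libraries were deeper. When the spread was estimated over all 24 libraries in 1 fit, an alternative setting, Xpo1 and Kpnb1 of the 14 were called, and the share of all genes called fell likewise, from 15.5% to 2.05%.

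In FFPE 3 weeks liver Xpo1 and Kpnb1 were again the members called higher, by 0.50 ± 0.14 (adjusted p = 0.0474) and 0.44 ± 0.12 (adjusted p = 0.0488, edgeR). Of all 12983 genes tested, 1.07% were called higher and 1.51% lower. The receptor median was 0.215, with 18 of 22 above zero, and the pore median 0.084, with 12 of 19 above zero, against 0.014 over all genes. The pore median was 0.037 without control animal 3 and 0.182 without control animal 4, and the receptor median was 0.142 without furan animal 41. Furan lay above control in every library for Kpnb1, Kpna1 and Kpna4, against 3.88% of all genes. The median standard error of the members was 0.201.

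The pieces come from the same animals, so the preservations do not repeat the experiment on other mice. Within that limit, 27 of the 41 members tested in every preservation had a fold change above zero in each. The share of all genes with this pattern was not determined, so the count has no background beside it. In 9 members (Ipo7, Kpna1, Kpna4, Kpnb1, Nup153, Nup93, Tnpo3, Xpo1 and Xpot) every furan library lay above every control in frozen and in FFPE 18 h liver, as in 4.15% of the 13842 genes tested in both. In Kpna1, Kpna4 and Kpnb1 this held in each of the 3 preservations, as in 1.32% of the 12804 genes tested in all. The difference in the furan effect between FFPE 18 h and frozen was called for 0 members, and at an unadjusted p below 0.05 for 0 members against 1.61% of all genes. Between FFPE 3 weeks and frozen it was called for 0, and 1 member, Nup155, reached an unadjusted p below 0.05 (-0.41 ± 0.19, adjusted p = 1, edgeR), against 4.1% of all genes. In both tests no gene of the table was called by edgeR. DESeq2 called none and 13 genes of the table, none of them members. The members with the smallest p for FFPE 18 h were Nup35 (-0.82), Nup54 (-0.28) and Nup37 (-0.41), and after Nup155 those for FFPE 3 weeks were Nup54 (-0.81) and Nup43 (-0.87), each with adjusted p = 1 (edgeR).

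**Figure D3:**
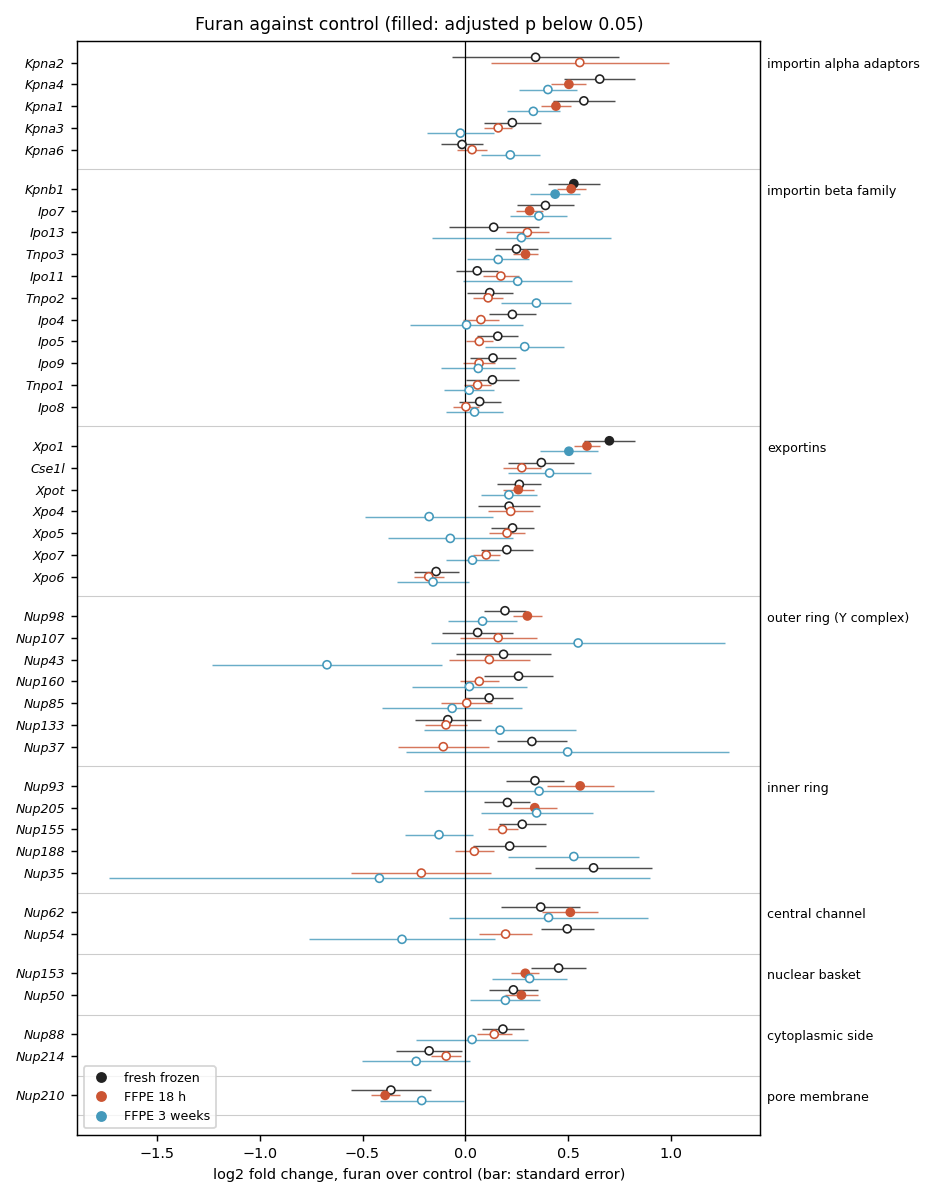
Log2 fold change of furan over control with its standard error for each member tested, grouped by role. Black is fresh frozen, orange FFPE 18 h and blue FFPE 3 weeks liver, and filled points passed an adjusted p of 0.05; Xpo1 and Kpnb1 are filled in all 3, Nup210 lies left of zero in all 3, and the bars are longest in FFPE 3 weeks.

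Importin alpha adaptors. Of the 5 adaptors tested in FFPE 18 h liver, Kpna1 and Kpna4 were called higher, beside 7.82% of all genes. No adaptor was called in the other pieces. Differences between adaptors were not tested. In frozen liver Kpna4 stood at 75.6, 39.6, 65.8 and 71.9 CPM in control animals 2, 3, 4 and 6 and at 99.2, 102, 93.9 and 102 CPM in furan animals 41 to 44. In FFPE 18 h liver it stood at 58.4, 71.4, 61.6 and 59.6 CPM in controls and at 103, 86.5, 86.3 and 77.8 CPM with furan. After 3 weeks in formalin the controls read 72.8, 76, 87.3 and 67.5 CPM and the furan animals 92.3, 108, 87.7 and 108 CPM. The groups did not overlap in any of the 3 pieces, and frozen control animal 3 was by far the lowest. The log2 fold changes were 0.65 ± 0.17 (adjusted p = 0.0752), 0.50 ± 0.09 (adjusted p = 0.000659) and 0.40 ± 0.14 (adjusted p = 0.15, edgeR), so that only the FFPE 18 h difference was called.

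Kpna1 gave a like picture. Its frozen levels were 105.8, 62.5, 84.3 and 88.9 CPM in controls and 132, 118.5, 116 and 142 CPM with furan. The FFPE 18 h levels were 81.9, 76.4, 73.2 and 69.2 CPM in controls and 105.4, 105, 90.1 and 104.8 CPM with furan. After 3 weeks they were 92.4, 87.8, 90.8 and 91.1 CPM against 105.6, 96.7, 119.8 and 128 CPM. Furan and control did not overlap in any piece. The log2 fold changes were 0.58 ± 0.15, 0.44 ± 0.07 and 0.33 ± 0.13 with adjusted p = 0.0709, 0.000468 and 0.22 (edgeR). In frozen liver both Kpna1 and Kpna4 were called when control animal 3 was left out, with adjusted p = 0.011 and 0.00253 (edgeR). Their log2 fold changes were then smaller, at 0.453 ± 0.101 and 0.484 ± 0.087. Kpna3 read 0.23 ± 0.14, 0.16 ± 0.07 and -0.02 ± 0.16, Kpna6 -0.02 ± 0.10, 0.03 ± 0.07 and 0.22 ± 0.14, and neither was called. Kpna2 read 0.34 ± 0.41 and 0.56 ± 0.43 in frozen and FFPE 18 h liver, also not called.

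Importin beta family. Kpnb1, the carrier that the adaptors bind, rose in all 3 pieces. Frozen levels were 156, 119, 146 and 133 CPM in controls and 181, 181.5, 205.5 and 232 CPM with furan. FFPE 18 h levels were 121, 122, 114 and 115.5 CPM against 149.8, 161, 173 and 188 CPM. FFPE 3 weeks levels were 124, 108, 99.2 and 112 CPM against 153, 134, 144 and 163 CPM. The groups were separate in each piece. The FFPE 18 h difference was 0.52 ± 0.07 (adjusted p = 9.51e-05, edgeR) and was called under all 13 alternative settings. The frozen call held under 5 of 13 settings, with adjusted p up to 0.18 when furan animal 44 was left out, and was lost also without control animal 4 or 6, or furan animal 41, 42 or 43. The FFPE 3 weeks call held under 6 of 13, with adjusted p up to 0.174 without furan animal 44; it was kept without control animal 2 and lost without any of the others.

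Ipo7, which shares cargo such as ribosomal proteins with Ipo8, was called in FFPE 18 h liver only. Its levels there were 115, 121.5, 114 and 117 CPM in controls and 162, 142.5, 140.2 and 132 CPM with furan, a difference of 0.31 ± 0.07 (adjusted p = 0.0035, edgeR). In frozen liver they were 168, 108, 148 and 166 CPM against 203.8, 182, 182 and 204 CPM (0.39 ± 0.14, adjusted p = 0.17). The groups were separate in both pieces and overlapped after 3 weeks, where Ipo7 read 0.36 ± 0.14. There its levels were 82.5, 92.1, 105.5 and 100.5 CPM in controls and 156, 114, 109.9 and 103 CPM with furan, and furan animal 44 lay below control animal 4. Ipo8, its closest relative, read 0.07 ± 0.10, 0.00 ± 0.06 and 0.04 ± 0.14 in the 3 pieces and was not called. That Ipo7 and Ipo8 differ in response was not tested.

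Tnpo3 stood at 72.3, 70.9, 67.6 and 68 CPM in FFPE 18 h controls and at 88.9, 85.6, 81.8 and 83.1 CPM with furan, a narrow and separate pair of groups (0.29 ± 0.06, adjusted p = 0.00296, edgeR). Its frozen levels were 84.2, 65.5, 72.9 and 81.3 against 89.7, 89.2, 88.6 and 93.2 CPM, also without overlap (0.25 ± 0.11, adjusted p = 0.239). After 3 weeks Tnpo3 stood at 75.2, 73.5, 66 and 63.2 CPM in controls and 73.4, 61.6, 88.9 and 82.8 CPM with furan, and the groups overlapped (0.16 ± 0.15, adjusted p = 0.795). The other 8 members of the family were not called in any piece. They are Tnpo1 and Tnpo2, which import hnRNP proteins, and Ipo4, Ipo5, Ipo8, Ipo9, Ipo11 and Ipo13. Their FFPE 18 h values ranged from 0.00 ± 0.06 for Ipo8 to 0.30 ± 0.10 for Ipo13 (adjusted p = 0.0606). All 11 genes of the family had a fold change above zero in each piece, and the family medians were 0.138, 0.111 and 0.255 in frozen, FFPE 18 h and FFPE 3 weeks liver.

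Exportins. Xpo1 showed the largest furan difference of any receptor in each piece. Frozen levels were 80.7, 55.1, 67.2 and 75.4 CPM in controls and 110.6, 108, 112 and 121 CPM with furan. FFPE 18 h levels were 66.4, 66, 63.8 and 63 CPM in controls and 93.7, 103, 99.8 and 92 CPM with furan. After 3 weeks the controls read 66.8, 72.7, 93.6 and 79.6 CPM and the furan animals 119.6, 110.2, 115 and 93.2 CPM. The groups were separate in frozen and FFPE 18 h liver, whereas after 3 weeks control animal 4 read slightly above furan animal 44. The FFPE 18 h difference was 0.59 ± 0.06 (adjusted p = 8.39e-06, edgeR) and was called under all 13 alternatives. The frozen call was lost without control animal 4, furan animal 43 or furan animal 44, with adjusted p up to 0.0708. The FFPE 3 weeks call held under 5 of 13, with adjusted p up to 0.153 without control animal 2, and among the animals it was kept only without control animal 4 or furan animal 44.

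Xpot, the exporter of tRNAs, was called in FFPE 18 h liver. It read 79.7, 81.7, 91.1 and 86 CPM in controls and 117, 96.4, 95.5 and 93.4 CPM with furan (0.26 ± 0.08, adjusted p = 0.0249, edgeR), and furan animal 41 was the high value. The call was lost without that animal, with adjusted p = 0.0989, without control animal 2 (0.088) or 3 (0.0994), and in libraries thinned to equal depth (0.101). Frozen levels were 88.6, 79.6, 83 and 91.5 CPM against 114, 93.2, 94.1 and 109 CPM (0.26 ± 0.11, adjusted p = 0.223). After 3 weeks Xpot stood at 113, 108, 102 and 104.5 CPM in controls and 152.5, 99.3, 105.5 and 132 CPM with furan, with furan animal 43 among the controls and furan animal 42 below them (0.21 ± 0.14, adjusted p = 0.593).

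Cse1l, which returns importin alpha to the cytoplasm, read 0.37 ± 0.16, 0.28 ± 0.09 and 0.41 ± 0.20 in frozen, FFPE 18 h and FFPE 3 weeks liver and was not called, with adjusted p = 0.253, 0.0531 and 0.406 (edgeR). Xpo5, the exporter of microRNA precursors, read 0.23 ± 0.10, 0.20 ± 0.09 and -0.07 ± 0.30. Xpo4 and Xpo7 were also not called. Xpo6, which exports profilin-bound actin, was the 1 exportin below zero in each piece, at -0.14 ± 0.11, -0.18 ± 0.07 and -0.16 ± 0.18, and it too was not called. Of the 7 exportins, 6 had a fold change above zero in frozen and in FFPE 18 h liver, and differences between exportins were not tested.

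**Figure D4:**
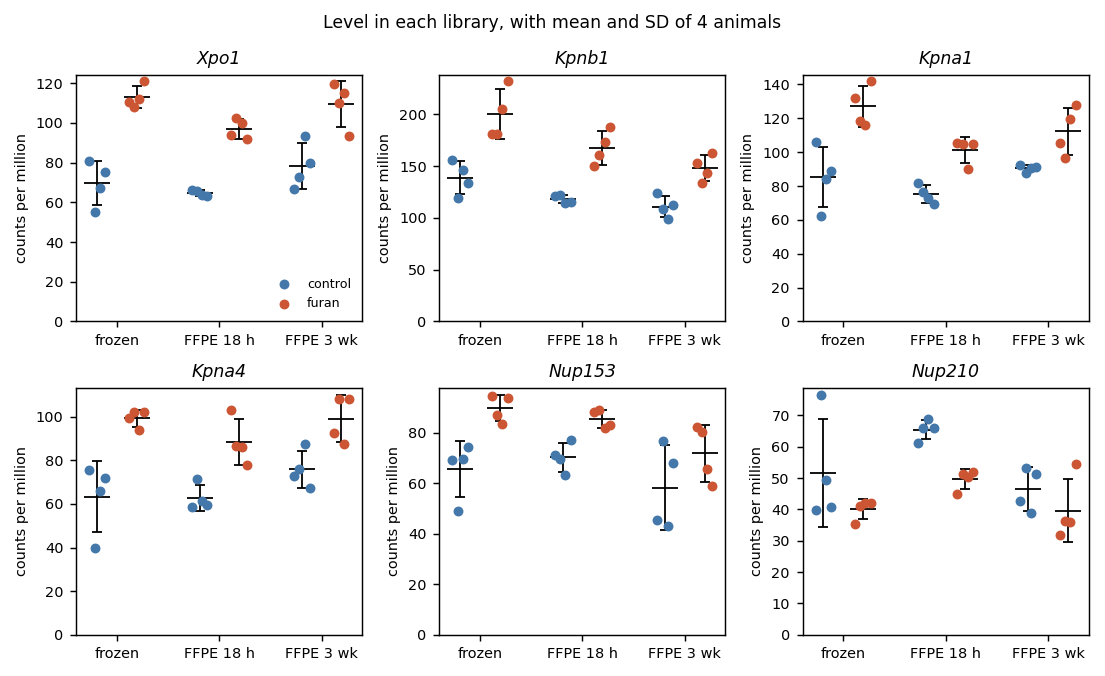
Level of 6 members in each library, in CPM, by preservation and treatment. Points are animals (blue control, orange furan) and black bars are the mean and SD of 4; Xpo1 runs from 55.1 to 80.7 in frozen controls and from 108 to 121 with furan, and Nup210 is lower with furan in FFPE 18 h liver, without overlap.

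Nuclear basket and central channel. Nup153, a basket protein that binds receptors on the nuclear side, read 71.2, 69.5, 63.4 and 77.3 CPM in FFPE 18 h controls and 88.3, 88.9, 81.9 and 83 CPM with furan (0.29 ± 0.07, adjusted p = 0.00787, edgeR). The call was lost in libraries thinned to equal depth (adjusted p = 0.0655). Its frozen levels were 69.3, 49.2, 69.6 and 74.2 CPM against 94.7, 87.1, 83.6 and 93.8 CPM (0.45 ± 0.13, adjusted p = 0.099). The groups were separate in both pieces, and overlapped after 3 weeks. The FFPE 3 weeks levels of Nup153 were 45.4, 76.7, 43 and 68.1 CPM in controls and 82.4, 80.3, 65.6 and 58.9 CPM with furan (0.31 ± 0.18). Without control animal 3, the frozen difference was smaller, at 0.338 ± 0.087, and was called (adjusted p = 0.0247, edgeR). Nup50, its partner in the basket, read 48, 46.5, 42.4 and 54.9 CPM in FFPE 18 h controls and 54.1, 59.5, 60.3 and 56.2 CPM with furan (0.27 ± 0.08, adjusted p = 0.0291). Control animal 6 overlapped the furan animals, and the call was lost without any of control animals 2, 3 and 4 or furan animals 42, 43 and 44, with adjusted p up to 0.12, and in libraries thinned to equal depth, with 0.149. Nup50 also overlapped in the other pieces, with 49.7, 46.9, 45.9 and 62 CPM in controls and 55.2, 60.9, 62.3 and 61.5 CPM with furan in frozen liver (0.23 ± 0.12). After 3 weeks it stood at 43.8, 50.5, 63.3 and 54.1 CPM in controls and 61.2, 61, 65 and 52.2 CPM with furan (0.20 ± 0.17).

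Nup62 and Nup54 are FG-repeat proteins of the central channel. Nup62 read 9.05, 7.09, 8.48 and 7.8 CPM in FFPE 18 h controls and 9.62, 11.6, 12.4 and 12.3 CPM with furan (0.51 ± 0.14, adjusted p = 0.0155, edgeR). The groups were separate but the lowest furan animal was close to the highest control, and the call was lost without control animal 3 or furan animal 43 or 44, with adjusted p up to 0.0633, and in libraries thinned to equal depth, with 0.0978. Its groups overlapped in the other pieces. In frozen liver Nup62 stood at 7.94, 11.2, 7.84 and 6.87 CPM in controls and 11.6, 13, 8.46 and 10.6 CPM with furan (0.37 ± 0.19, adjusted p = 0.34). After 3 weeks it stood at 7.49, 8.18, 4.75 and 4.62 CPM in controls and 5.47, 7.41, 5.99 and 13.9 CPM with furan (0.41 ± 0.48). Nup54 read 13.6, 11.9, 12.9 and 14.4 CPM in frozen controls and 18.8, 17.6, 20.8 and 17.2 CPM with furan, without overlap (0.50 ± 0.13, adjusted p = 0.0685). It was called without control animal 3, at 0.448 ± 0.118 (adjusted p = 0.0273, edgeR). In FFPE 18 h liver Nup54 read 0.20 ± 0.13 and after 3 weeks -0.31 ± 0.45, and the groups overlapped in both.

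Rings of the scaffold. In the inner ring, Nup93 and Nup205 were called higher in FFPE 18 h liver, beside 7.82% of all genes. Nup93 read 7.55, 5.07, 7.95 and 5.58 CPM in controls and 9.48, 8.65, 10.8 and 9.34 CPM with furan (0.56 ± 0.16, adjusted p = 0.026, edgeR), and 7.02, 6.68, 6.6 and 7.07 CPM against 8.88, 8.59, 7.72 and 9.39 CPM in frozen liver (0.34 ± 0.14, adjusted p = 0.228). Both pieces were without overlap. After 3 weeks Nup93 stood at 6.31, 3, 7.06 and 3.33 CPM in controls and 6.97, 7.26, 4.68 and 6.04 CPM with furan, with overlap (0.36 ± 0.56). The FFPE 18 h call was lost without control animal 3 or 6 or furan animal 41, 43 or 44, with adjusted p up to 0.1. Nup205 read 24.7, 26.5, 26.4 and 29.9 CPM in FFPE 18 h controls and 27.2, 34.6, 33.7 and 39.6 CPM with furan (0.34 ± 0.11, adjusted p = 0.038). Furan animal 41 lay among the controls, and the call was lost without control animal 2, 3 or 4 or furan animal 42, 43 or 44, with adjusted p up to 0.161. The Nup205 groups overlapped in the other pieces too. Frozen levels were 34.1, 33.6, 31.6 and 35.5 CPM in controls and 39.1, 33.4, 38.9 and 43.7 CPM with furan (0.21 ± 0.11), and FFPE 3 weeks levels were 16.4, 21.4, 20.8 and 15.2 CPM in controls and 25.9, 22.1, 17.1 and 27.6 CPM with furan (0.35 ± 0.27).

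The other inner-ring genes, Nup155, Nup188 and Nup35, were not called. Nup155 read 0.28 ± 0.11 in frozen, 0.18 ± 0.07 in FFPE 18 h and -0.13 ± 0.17 in FFPE 3 weeks liver. Its frozen levels were 63.4, 48.6, 52.2 and 56.7 CPM in controls and 65.4, 66.2, 61.8 and 74.1 CPM with furan, and furan animal 43 lay below control animal 2. In the outer ring, or Y complex, 1 of 7 genes was called in FFPE 18 h liver. Of all genes tested there, 7.82% were called higher and 7.72% lower. The outer-ring gene called was Nup98, whose product is cleaved into Nup98 and the ring protein Nup96. It read 80.1, 71, 86.8 and 76.4 CPM in controls and 89.8, 104, 97.1 and 93.7 CPM with furan, without overlap (0.30 ± 0.07, adjusted p = 0.00804, edgeR). In frozen liver the Nup98 groups overlapped (0.19 ± 0.10, adjusted p = 0.345). There Nup98 stood at 81.5, 76.1, 77.5 and 80.5 CPM in controls and 88, 98.2, 78.6 and 95.5 CPM with furan. After 3 weeks it stood at 68.3, 45.6, 80.5 and 57.4 CPM in controls and 68.3, 62.7, 68.8 and 63.6 CPM with furan (0.08 ± 0.17). Nup37, Nup43, Nup85, Nup107, Nup133 and Nup160 had FFPE 18 h values between -0.11 ± 0.22 for Nup37 and 0.16 ± 0.19 for Nup107. In frozen liver Nup37 had the smallest p of the ring, and stood at 6.49, 4.59, 5.88 and 7.22 CPM in controls and 7.15, 7.75, 7.41 and 7.94 CPM with furan (0.32 ± 0.17, adjusted p = 0.337, edgeR), with furan animal 41 below control animal 6. The median of the 7 outer-ring genes was 0.186 in frozen and 0.068 in FFPE 18 h liver.

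Pore membrane and cytoplasmic side. Nup210, a membrane-spanning glycoprotein of the pore that varies between tissues, was the 1 member called lower. FFPE 18 h levels were 61.3, 65.8, 68.8 and 65.9 CPM in controls and 44.8, 51.2, 50.4 and 52 CPM with furan, without overlap (-0.39 ± 0.07, adjusted p = 0.00115, edgeR). In frozen liver they were 39.7, 76.5, 49.5 and 40.8 CPM against 35.3, 41, 42 and 42.1 CPM. Here the groups overlapped, control animal 3 was the high value, and the difference of -0.36 ± 0.19 was not called (adjusted p = 0.35). Its frozen log2 fold change ranged from -0.47 to -0.11 over the alternatives, and was closest to zero without control animal 3 (-0.112 ± 0.109). After 3 weeks Nup210 read 42.7, 53.2, 38.8 and 51.3 CPM in controls and 31.8, 36.3, 36.1 and 54.4 CPM with furan (-0.21 ± 0.20, adjusted p = 0.8). Of the cytoplasmic filament proteins, Nup88 read 0.18 ± 0.10, 0.14 ± 0.09 and 0.03 ± 0.27 and Nup214 -0.18 ± 0.16, -0.09 ± 0.07 and -0.24 ± 0.26. Neither was called. In frozen liver Nup88 stood at 42.1, 43.3, 35.8 and 42.7 CPM in controls and 47.7, 46.3, 44 and 47.7 CPM with furan, without overlap. In FFPE 18 h liver all furan libraries of Nup214 lay below all controls.

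Other genes of nuclear transport were taken from 4 lists. Of the 11 tested pore proteins under other symbols, 3 rose in frozen liver, where 1.57% of all genes were called higher, and 4 in FFPE 18 h liver, where 7.82% were. None fell. Ahctf1 (ELYS), which seeds pores on chromatin, rose by 0.45 ± 0.10 in frozen liver (155 ± 12.4 to 212 ± 10.4 CPM, SD, n = 4; adjusted p = 0.0392, edgeR) and by 0.41 ± 0.06 in FFPE 18 h liver (adjusted p = 0.000255). Sec13, a protein shared by the outer ring and COPII vesicles, rose by 0.58 ± 0.13 (adjusted p = 0.0391) and 0.34 ± 0.09 (adjusted p = 0.014). Aaas (aladin) rose by 0.67 ± 0.15 (adjusted p = 0.0391) and 0.68 ± 0.14 (adjusted p = 0.00246), and Ndc1, a membrane anchor of the pore, by 0.35 ± 0.11 in FFPE 18 h liver (adjusted p = 0.0386).

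In the Ran cycle, 0 of 7 tested genes were called in frozen liver and 2 in FFPE 18 h liver, against the same shares of all genes. These were Ran itself (0.35 ± 0.11, adjusted p = 0.0395, edgeR) and Ranbp1, a cofactor that helps to release Ran-GTP from receptors (0.42 ± 0.12, adjusted p = 0.0255). In frozen liver Ran stood at 15.9 ± 0.93 CPM in controls and 22.4 ± 2.04 CPM with furan (SD, n = 4), with no overlap and adjusted p = 0.0548. Of 17 tested mRNA export genes, 3 rose in FFPE 18 h liver, the THO complex genes Thoc1, Thoc2 and Thoc5, and none in frozen liver, again beside 7.82% and 1.57% of all genes. No gene of the 3 receptors under other symbols was called. In FFPE 3 weeks liver no gene of the 4 lists was called. The median log2 fold changes in FFPE 18 h liver were 0.213 for pore proteins under other symbols, 0.176 for mRNA export and 0.083 for the Ran cycle.

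Markers of cell state and of other cell types moved with furan as well. The 8 dividing-cell markers, among them Mki67 and Cdk1, summed to 20.2 to 29.1 CPM in frozen controls and 36.3 to 71 CPM with furan. Of these, 3 of 8 were called higher, against 1.57% of all genes. In FFPE 18 h liver the sums were 19.8 to 32.5 and 32 to 64.7 CPM, with furan animal 41 slightly below control animal 3. There 3 of 7 were called higher, against 7.82% of all genes. In FFPE 3 weeks liver the sums overlapped too, at 18.6 to 30.6 and 27.7 to 35.2 CPM, with 0 of 7 called, against 1.07% of all genes called higher. The 6 sinusoidal endothelium markers summed to 586 to 614 CPM in frozen controls and 459 to 489 CPM with furan. Of these, 1 of 6 was called lower in frozen and 5 of 6 in FFPE 18 h liver, against 1.2% and 7.72% of all genes. In FFPE 3 weeks liver the endothelial sums overlapped, at 437 to 501 and 396 to 451 CPM, with a median log2 fold change of -0.01. There 0 of 6 were called, against 1.51% of all genes called lower. Kupffer cell markers summed to 333 to 710 CPM in frozen controls, the high value being animal 4, and 350 to 382 CPM with furan. Stellate, bile duct and lymphocyte sums overlapped between the groups in frozen liver. Of these markers, 1 bile duct marker was at 0 in frozen control animal 3, and none was at 0 in the other frozen libraries. The part of these shifts in the members' differences was not tested. In bulk tissue, fewer cells of a type and less RNA per cell cannot be told apart.

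The second question was how formalin changed the measured levels, over furan and control animals, 8 libraries against 8. The libraries are pieces of the same 8 livers, but the fits across preservations, the interactions among them, did not pair them by animal. Counts with the animal as a block are given further below. Of 42 members tested, 8 were higher and 17 lower in FFPE 18 h than in frozen pieces. Of all 14843 genes tested, 26.6% were called higher and 27.3% lower. The receptors gave 5 higher and 9 lower, the pore proteins 3 higher and 8 lower. Without animal 3, 9 members were higher and 21 lower, and 57.4% of all genes were called against 53.9% with all animals. Extraction kit, number of sections and piece of liver go with the preservation, and cannot be told apart from it.

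The largest rises were in Nup214, the filament protein that anchors Nup88, and in Ipo13. Nup214 read from 16.7 to 28.7 CPM (median 22.1) in frozen and from 34.6 to 40.3 CPM (median 38.2) in FFPE 18 h libraries, with no overlap (0.81 ± 0.09, adjusted p = 1.71e-07, edgeR). Ipo13 read from 6.46 to 12.9 (median 9.93) and from 13.5 to 19.6 CPM (median 15.3), also without overlap (0.69 ± 0.12, adjusted p = 7.16e-05). Nup188 rose by 0.44 ± 0.10 (adjusted p = 0.00102) and Xpo6 by 0.40 ± 0.06 (adjusted p = 3.16e-05). The largest falls among the called members were mostly in outer-ring genes. The importin alpha adaptor Kpna2, at -0.626, was not called, and its medians were 1.555 CPM in frozen and 0.956 CPM in FFPE 18 h libraries. Nup37 went from a median of 7.19 to 4.04 CPM (-0.69 ± 0.14, adjusted p = 0.000306), Nup133 from 23.4 to 15.5 CPM (-0.56 ± 0.09, adjusted p = 4.55e-05) and Nup107 from 8.36 to 5.81 CPM (-0.51 ± 0.13, adjusted p = 0.00243). Ipo11, an importer of ubiquitin-conjugating enzymes, went from a median of 36.3 to 28 CPM (-0.40 ± 0.07, adjusted p = 3.3e-05).

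After 3 weeks in formalin, 4 members were higher and 14 lower than in frozen pieces, while 23% of all 14253 genes were called higher and 25.8% lower. All 4 rises were receptors: Tnpo1 (0.43 ± 0.09, adjusted p = 0.000264, edgeR), Xpo7 (0.40 ± 0.09), Xpot (0.30 ± 0.09) and Kpna6 (0.26 ± 0.09). Of the pore proteins, 7 of 19 were lower and 0 higher. Nup133 fell to a median of 10.7 CPM, with a range of 7.41 to 13.1 against 17.4 to 30.2 in frozen libraries (-1.09 ± 0.17, adjusted p = 4.78e-06). Nup88 fell from a median of 43.7 to 22.9 CPM (-0.90 ± 0.14, adjusted p = 6.93e-06), Nup37 by 0.90 ± 0.27 and Nup54 by 0.85 ± 0.22 on the log2 scale. The lowest value of any member was -1.448, in the importin alpha adaptor Kpna2, which was not called. Kpna2 had a median of 1.555 CPM in frozen and 0.398 CPM in FFPE 3 weeks libraries. In the latter it held 0 to 8 counts in controls and 1 to 17 with furan. The medians were -0.163 over receptors, -0.373 over pore proteins and -0.016 over all genes. The Kpna6 call was lost without animal 4, 6, 41 or 42, with adjusted p up to 0.0973. Without animal 3, 4 members were higher and 15 lower, and 47.1% of all genes were called against 48.8% with all animals.

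Between the fixed pieces, 5 members were higher and 13 lower after 3 weeks than after 18 h, while 14.9% of all 14414 genes were called higher and 17.5% lower. The 5 higher genes were Tnpo1, which went from a median of 94.7 to 140.3 CPM (0.61 ± 0.07, adjusted p = 1.03e-07, edgeR), and Xpot, Xpo1, Kpna4 and Kpna1, between 0.22 ± 0.07 and 0.32 ± 0.08. The lowest of the called members were Ipo13 (-0.88 ± 0.19, adjusted p = 0.00057), Ipo4 (-0.62 ± 0.12), Xpo5 (-0.55 ± 0.16) and Nup133 (-0.54 ± 0.15). The importin alpha adaptor Kpna2 at -0.839 and a central channel gene at -0.557 were not called. The Kpna2 medians were 0.956 CPM after 18 h and 0.398 CPM after 3 weeks. No pore protein was called higher and 7 of 19 were called lower. The call of Xpo1 was lost without animal 4, 41 or 43 and that of Kpna4 without animal 2, 4, 42 or 44, with adjusted p up to 0.133.

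The direction of a member's shift went with its base composition between FFPE 18 h and frozen and between the fixed pieces, but not between FFPE 3 weeks and frozen. Across the 42 members, the GC content of the transcript and the FFPE 18 h over frozen difference had Pearson's r = 0.54 (Spearman's rho 0.45), and the 8 called higher had a median GC content of 54% against 46% in the 17 called lower. Between FFPE 3 weeks and FFPE 18 h the relation was the other way, r = -0.58 (rho -0.56), with a median of 40.4% in the 5 called higher and 50.4% in the 13 called lower. Both comparisons use the same FFPE 18 h libraries, with opposite sign, so the opposite relations are not independent findings. For FFPE 3 weeks over frozen r was -0.06 (rho -0.12). Exon length had r = 0.37 (rho 0.38) for FFPE 18 h over frozen and r = 0.41 (rho 0.4) for FFPE 3 weeks over frozen. Between the fixed pieces exon length had r = 0.17 (rho 0.16). These are descriptions across genes, which share their libraries and are not independent replicates. The share of counts on Rn45s, the ribosomal RNA precursor, was 0.0752% to 0.251% in frozen, 0.867% to 1.49% in FFPE 18 h and 2.77% to 5.16% in FFPE 3 weeks libraries.

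**Figure D5:**
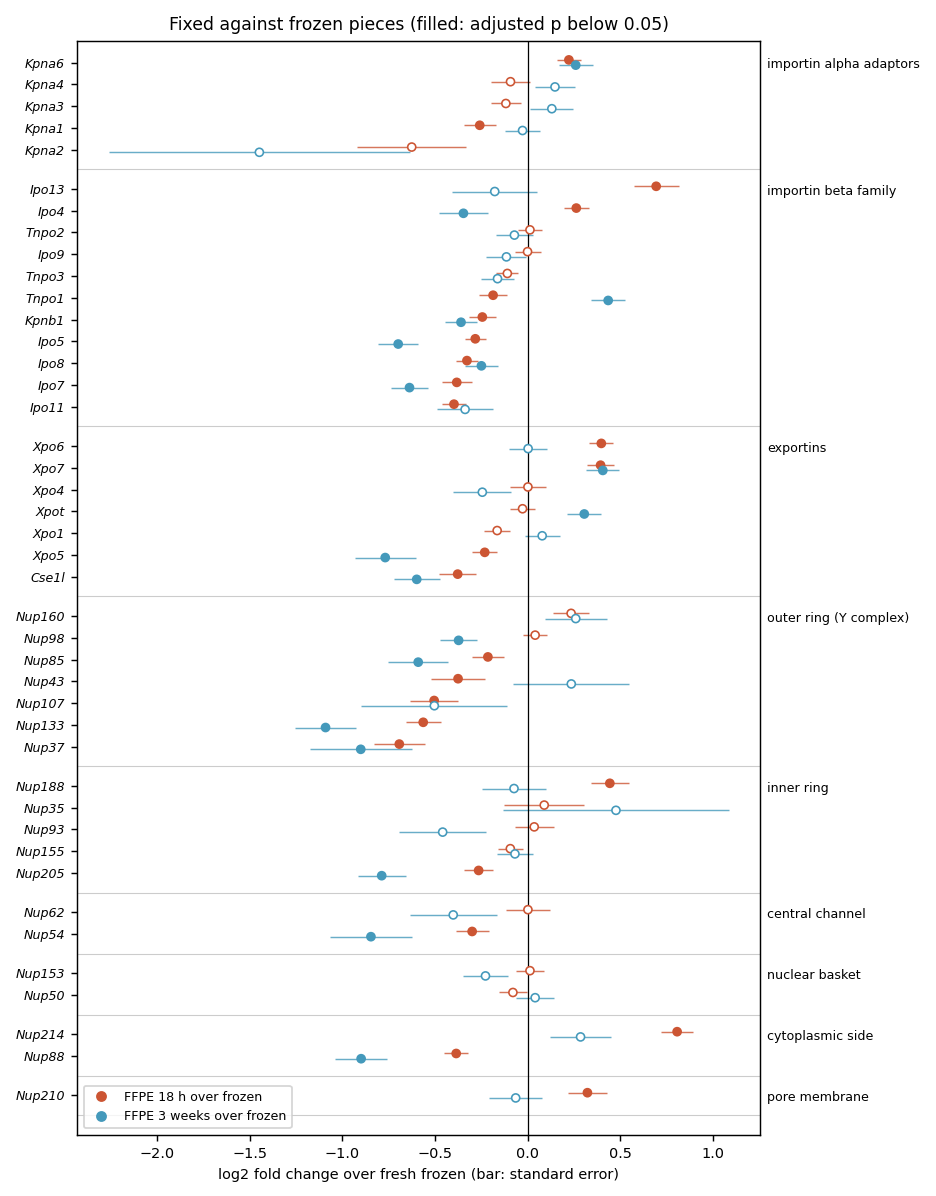
Log2 fold change of FFPE 18 h (orange) and FFPE 3 weeks (blue) over fresh frozen pieces for each member tested, with standard errors, grouped by role; filled points passed an adjusted p of 0.05. Nup214 and Ipo13 lie highest after 18 h (0.81 and 0.69), and outer-ring Nup133 and Nup37 lie below zero at both times.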

How the data were processed

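RNA-seq counts per gene were used for 24 libraries from the livers of 8 mice. The authors deposited 1 table of raw counts for 24015 genes, and 4185 of these were at 0 throughout. Per the submitters' processing notes, CASAVA 1.8.2, STAR 2.3.0, featureCounts 1.4.4 and the build mm9 were used. Which gene models were counted, whether strand was used and how multi-mapped reads were handled is not given in the sources used here.

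From the counts, furan and control animals were compared in each kind of piece, the kinds of piece were compared over all animals, and the difference in furan effect was tested as an interaction. edgeR 4.0.16 in R 4.3.3 was used with TMM scaling, its default filter on low counts, the quasi-likelihood test and Benjamini-Hochberg adjustment over all genes tested, with a threshold of 0.05 and a prior count of 2. CPM were scaled with TMM factors over all 24 libraries. Standard errors were derived from the log2 fold change and the F statistic. The scripts were tested on simulated data.

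Groups came from the labels. The animals of a group are separate mice, and the 3 pieces of a liver share an animal, per the labels. Deviations from the group means correlated between pieces of the same animal at 0.028 to 0.246 for FFPE 18 h and frozen, -0.005 to 0.082 for the fixed pieces, and 0.025 to 0.092 for FFPE 3 weeks and frozen. Among animals of the same treatment, the own animal gave the highest correlation in 7, 6 and 8 of 8 pairs, in the same order.

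Every member is accounted for. Values per library are given for members called in a furan comparison and for the member of each role with the smallest p in frozen or FFPE 18 h liver. For preservation, the 4 largest called rises and falls were named. The members and lists were chosen with earlier results of these data known. Alternatives were DESeq2's size factors, no filter on low counts, the DESeq2 1.42.0 test, libraries thinned to 5560002 counts, 1 fit over all 24 libraries, the animal as a block, and leaving out each animal. Exon lengths, GC content and promoters came from GRCm38 annotation, matched by symbol.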

Additional observations from a re-analysis of the deposited data

Results flagged for a closer look

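Among 108 groups of 4 libraries over 18 members, 6 held a library whose gap to the nearest of the others was large for the group's range. Chance alone gives this in about 1 in 20 groups. Kpna1 stood at 90.1 CPM in furan animal 43 of the FFPE 18 h pieces, against 104.8 to 105.4 CPM in the other furan animals. Xpot stood at 117 CPM in furan animal 41 of the same pieces, against 93.4 to 96.4 CPM. Nup37 stood at 5.44 CPM in furan animal 42 of the same pieces, against 3.39 to 3.67 CPM. Nup210 stood at 35.3 CPM in frozen furan animal 41, against 41 to 42.1 CPM. Nup88 stood at 35.8 CPM in frozen control animal 4, against 42.1 to 43.3 CPM. Nup54 stood at 17.1 CPM in FFPE 3 weeks control animal 2, against 6.34 to 7.57 CPM.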

How the results depend on the processing

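Calls in frozen liver depended on single animals and on the settings of the fit, the test among them. Those in FFPE 3 weeks liver depended on single animals, size factors and depth, and were the same with the DESeq2 test. In FFPE 18 h liver the count of calls changed most in the fit over all 24 libraries. The cause was not tested. Against 2 members called in frozen liver, DESeq2's size factors gave 1, no low-count filter 1, the DESeq2 test 6 and the fit over all 24 libraries 4, and leaving out 1 animal gave 0 to 7. Of all genes, 2.78% were called in frozen liver, and 2.72%, 2.07%, 5.4% and 3.47% in these settings in turn. Leaving out 1 animal gave 0.693% to 8.03% of all genes. Against 14 in FFPE 18 h liver, the fit over all 24 libraries gave 2, thinned libraries 10, and leaving out 1 animal 9 to 13. Of all genes, 15.5% were called there, against 2.05% in that fit and 13.1% in thinned libraries. The share was 11% to 14.3% when 1 animal was left out. Against 2 in FFPE 3 weeks liver, DESeq2's size factors and thinned libraries gave 1 each, and leaving out 1 animal 0 to 1. Of all genes, 2.58% were called there, against 2.56% with these size factors and 2.66% in thinned libraries. The share was 1.63% to 2.09% when 1 animal was left out. Median log2 fold changes moved as follows. Over pore proteins in frozen liver, thinned libraries gave 0.139. Leaving out 1 animal gave 0.049 to 0.159 over pore proteins in FFPE 18 h and 0.037 to 0.182 in FFPE 3 weeks liver, within their spread. Over receptors, leaving out 1 animal gave 0.184 to 0.246 in frozen, 0.15 to 0.228 in FFPE 18 h and 0.142 to 0.245 in FFPE 3 weeks liver. Between the fixed pieces the receptor median was -0.048 with DESeq2's size factors and -0.032 with its test, against -0.095. With the animal as a replicate block, 25 members were called for FFPE 18 h over frozen, 18 for FFPE 3 weeks over frozen and 21 between the fixed pieces, against 25, 18 and 18, and 0 in both interactions. In the preservation comparisons, in the same order, 57.4%, 47.1% and 35.8% of all genes were called with the block. Without it, 53.9%, 48.8% and 32.4% were called.

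Of 1092 values of named members under alternatives, 996 kept direction and call, 77 lost the call, 12 gained it and 7 changed sign, none of them called. Leaving out 1 animal gave -0.293 to 0.001 for Nup37 in FFPE 18 h liver, highest without control animal 4. In FFPE 3 weeks liver it gave -0.494 to 0.123 for Nup54 (highest without control animal 2) and -0.042 to 0.222 for Nup98 (lowest without control animal 3). Nup88 there went up to 0.26 without control animal 6, and was -0.074, -0.062, -0.036 and -0.059 without control animals 2 and 4 and furan animals 43 and 44. FFPE 3 weeks libraries held 5.56 to 11 M counts, and the standard error of the furan difference of Nup35 was 1.32 there.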

Other observations

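Nup107, an outer-ring protein, had 1 count (0.0834 CPM) in the FFPE 3 weeks piece of control animal 3, whereas the other 7 FFPE 3 weeks libraries ranged from 4.32 to 12.2 CPM.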
